A study of Mus musculus with 12 samples.

Results

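The thalamus and the habenula lie directly beneath the dorsal hippocampus, so RNA of these neighbouring nuclei can enter a hippocampal dissection. The 9 genes described here were taken as markers of these nuclei. They are Tcf7l2, Lef1, Prkcd, Rora, Calb2 and Synpo2 for the thalamus and Gpr151, Tac2 and Nwd2 for the habenula. They were listed by name, and are 9 of 24209 features obtained after the transcript entries of each gene symbol had been summed. All 9 were present in the tables, but their reads were very uneven. Prkcd, Calb2, Synpo2, Nwd2 and Gpr151 were measured in every mouse, Rora had few reads, near the limit set for testing, and Tcf7l2, Lef1 and Tac2 were practically without reads.

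RNA was sequenced from the hippocampi of both sides of 12 male C57BL/6 mice, in 2 experiments of 6 mice. All mice received an AAV2/5 vector in the hippocampus at an age of 10 weeks, and tissue was taken 10 weeks later. The vector of every mouse carried a GFP reporter under the synapsin promoter, which is active in neurons. In the 3 GFP-miR-9sp mice and the 3 GFP-miR-34sp mice it also carried a sponge, a row of imperfect sites that binds the miR-9 or the miR-34 family, and in the 3 GFP Ctrl mice of each experiment it carried none. The labels give hippocampal neurons as the cell type, although the entire dissected tissue was used, so other cells that the dissection took are included. The dentate granule cell gene Prox1 was present at 75.5 to 123 CPM (counts scaled to a common library size), and the myelin gene Mbp had 927 to 2329 reads in each mouse. Per mouse, 17279620 to 24428477 reads were counted for miR-9 and 11029604 to 16934133 for miR-34. Mice are named here by the number in their label, and mouse 8 of the miR-9 experiment is another animal than mouse 8 of the miR-34 experiment.

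Most excitatory relay neurons of the adult thalamus express Tcf7l2, a transcription factor at the end of the Wnt pathway, and Lef1 belongs to the same family of TCF/LEF factors. Prkcd encodes protein kinase C delta, Rora a nuclear receptor, Calb2 the calcium-binding protein calretinin and Synpo2 an actin-binding protein. In the habenula, Gpr151 is an orphan G protein-coupled receptor of projection neurons, Tac2 encodes the precursor of neurokinin B, and Nwd2 encodes a protein with NACHT and WD repeat domains. None of these genes is exclusive to its nucleus: calretinin is also made by hippocampal interneurons and mossy cells, and Synpo2 by smooth muscle.

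The sponges address the miR-9 and the miR-34 family. Their miRNAs are given below, without miR-34c, whose sequence was missing from the reference used. The seed, bases 2 to 8, is in capitals, and the sequences are those of RefSeq (GRCm38.p6).
miR-9-5p: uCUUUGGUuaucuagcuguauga
miR-34a-5p: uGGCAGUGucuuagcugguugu
miR-34b-5p: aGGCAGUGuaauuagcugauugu
The miR-34 forms shown share 1 seed, and miR-9-5p has another. In the longest annotated 3′ UTR of each member (GENCODE M1), the heptamer ACCAAAG, which is complementary to the miR-9 seed, was found once in Calb2 and 2 times in Rora. It was found in 11.4% of the 19915 genes with an annotated 3′ UTR. The heptamer CACTGCC, complementary to the miR-34 seed, was found 2 times in Lef1, once in Rora and once in Nwd2, and in 14% of all genes. Both were searched on the transcribed strand. Prkcd, Synpo2, Tcf7l2, Gpr151 and Tac2 held neither. The sites of the members that were measured in the experiment with the matching sponge are shown with the match in capitals, on NCBIM37, on the strand of the gene.
Calb2, miR-9 site at chr8:112666470-112666493, minus strand: tcttgtttACCAAAGAagagttta
Rora, miR-9 site at chr9:69228506-69228529, plus strand: atcagaggACCAAAGcctggaacc
Rora, miR-9 site at chr9:69229391-69229414, plus strand: tcattttaACCAAAGctttctgca
Nwd2, miR-34 site at chr5:64200504-64200527, plus strand: gctggtggCACTGCCttactctca
In Calb2 the heptamer was followed by A, which makes an 8mer. This 8mer was present in 3.75% of all genes.

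Tcf7l2 had 6 reads over the 6 mice of the miR-9 experiment and 1 read over those of the miR-34 experiment. Lef1 had 1 and 0 reads, and Tac2 had 0 and 1 reads. At these depths 3 reads over 6 mice correspond to 0.0248 CPM in the miR-9 experiment and 0.0383 CPM in the miR-34 experiment, which is the level that a count of 0 allows, for counting error only. Rora had 6 to 15 reads per mouse of the miR-9 experiment, and 2 to 9 per mouse of the other.

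These 4 genes have several transcript entries in the tables, 8 for Tcf7l2, 3 for Lef1, 3 for Rora and 2 for Tac2, whereas each of the other 5 members has 1. Gpr151, with 1 entry, also had few reads, at 9 to 33 per mouse. Across all genes, those with several entries had few reads more often. A mean scaled read count above 10 was reached by 58.5% of the genes with a single entry but by 33.8% of those with at least 3 entries for miR-9, and by 56.8% and 28.8% for miR-34. Ctnnb1, which encodes beta-catenin and has 2 entries, had 12 to 32 reads in each mouse. The myelin gene Mbp has 8 entries, as many as Tcf7l2, and had 927 to 2329 reads in each mouse. The low counts of Tcf7l2, Lef1, Tac2 and Rora were not read as their level in the tissue. The rule for reads shared between entries is not given, and whether the entries account for these counts was not tested. No fold change is given for these 4 genes, except for Rora in the miR-9 experiment.

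The remaining 5 members were ordered by RPKM, which is CPM divided by the transcript length in kilobases, since levels of different genes compare only per length. Calb2 (NM_007586, chr8:112661402-112692110, minus strand, NCBIM37) was the most abundant, with a median of 31.1 RPKM and a range of 20.9 to 40.1 over the 12 mice. Prkcd (NM_011103, chr14:31408542-31439396, minus strand) followed with a median of 12.7 RPKM and a range of 7.52 to 20.9, and was below Calb2 in 12 of 12 mice. Nwd2 (NM_177006, chr5:64040342-64201785, plus strand) had a median of 10.1 RPKM, and Prkcd exceeded it in 9 of 12 mice, so that the order of these neighbours was not uniform. Synpo2 (chr3:122779437-122939067, minus strand) was lower, at a median of 1.41 RPKM, and Gpr151 lower still, at 0.743 RPKM.

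Prkcd, Calb2 and Synpo2 varied strongly from mouse to mouse, and Nwd2 and Gpr151 stayed close to counting error. Within an experiment the highest mouse was 1.98 to 1.99 times the lowest for Prkcd, 1.75 to 1.89 times for Calb2 and 1.8 to 1.89 times for Synpo2. The coefficient of variation of Prkcd was 27.7% in the miR-9 experiment and 27.9% in the miR-34 experiment. Genes of similar read number, within 1.5 times, had a median of 4.99% and 5.61%, and 99.6% and 99.5% of them varied less than Prkcd. Calb2 varied more than 99.2% of such genes in both experiments, and Synpo2 more than 98.3% and 96.7%. Nwd2, with a coefficient of variation of 3.4% and 3.83%, lay below the median of its like. For Gpr151 the coefficient of variation was 17.6% and 25.3%, and its read number alone gives 19.7% and 27.0%. In the miR-34 experiment the groups of Synpo2 and Gpr151 did not overlap, so their spread includes the difference between groups. Synpo2 had 8.24 ± 0.621 CPM in GFP-miR-34sp and 11.8 ± 2.71 CPM in control mice there (SD, n = 3).

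**Figure D1:**
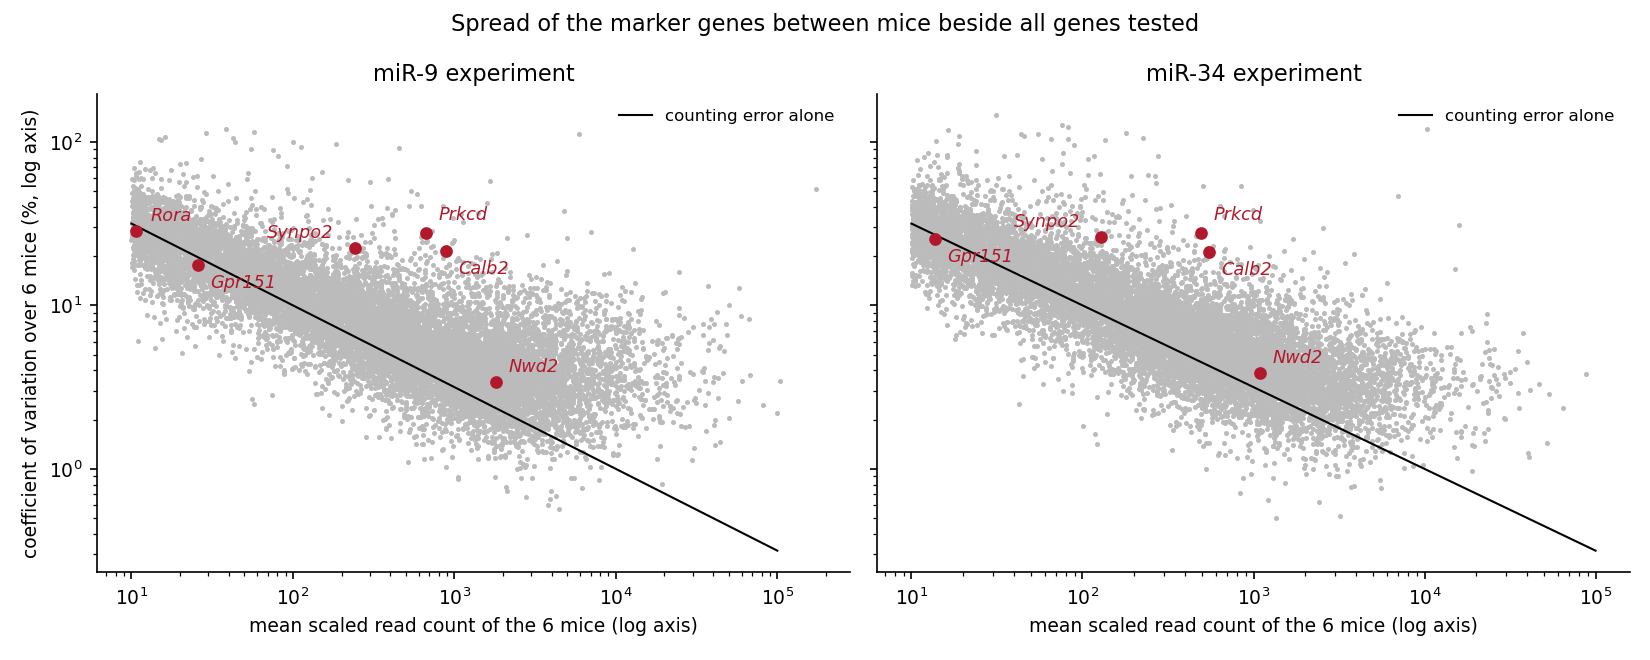
Coefficient of variation over the 6 mice of an experiment, sponge and control together (percent, log axis), against the mean scaled read count (log axis). Grey points are all genes tested, red points the members, and the line is the variation that counting alone gives. Prkcd, Calb2 and Synpo2 stand above most genes of like read number, while Nwd2, Gpr151 and Rora lie within the cloud.

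The levels of each member in single mice are given in CPM scaled by TMM, a factor that evens out the libraries. For Prkcd, the GFP Ctrl mice of the miR-9 experiment had 20.9 (mouse 16), 38.0 (mouse 2) and 41.1 CPM (mouse 8), and the GFP-miR-9sp mice had 26.1 (mouse 9), 26.2 (mouse 17) and 41.5 CPM (mouse 23). In the miR-34 experiment, the GFP Ctrl mice had 29.3 (mouse 4), 32.2 (mouse 10) and 58.0 CPM (mouse 8), and the GFP-miR-34sp mice had 30.9 (mouse 18), 38.5 (mouse 3) and 41.2 CPM (mouse 13). The groups overlapped in both experiments, and mouse 8 of the miR-34 controls was far above the other 5 mice.

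Calb2 likewise overlapped between sponge and control. The GFP Ctrl mice of the miR-9 experiment had 39.1 (mouse 16), 39.2 (mouse 8) and 48.3 CPM (mouse 2), and the GFP-miR-9sp mice had 30.5 (mouse 9), 44.1 (mouse 23) and 57.4 CPM (mouse 17), so that the sponge mice held both the lowest and the highest value. In the miR-34 experiment the GFP Ctrl mice had 29.9 (mouse 4), 50.3 (mouse 10) and 52.2 CPM (mouse 8), and the GFP-miR-34sp mice had 33.5 (mouse 3), 45.0 (mouse 13) and 46.5 CPM (mouse 18).

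Synpo2 was lower in every GFP-miR-34sp mouse than in every GFP Ctrl mouse of that experiment. The sponge mice had 7.85 (mouse 3), 7.92 (mouse 13) and 8.96 CPM (mouse 18), and the controls had 9.89 (mouse 10), 10.6 (mouse 4) and 14.9 CPM (mouse 8). In the miR-9 experiment the GFP-miR-9sp mice had 8.94 (mouse 23), 10.0 (mouse 9) and 13.0 CPM (mouse 17), against 10.1 (mouse 16), 12.4 (mouse 2) and 16.1 CPM (mouse 8) in the controls. The groups overlapped there, and in both experiments the highest value belonged to the control mouse numbered 8.

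Gpr151 went the other way in the miR-34 experiment. The GFP Ctrl mice had 9, 11 and 10 reads (mice 8, 10 and 4), or 0.779, 0.824 and 0.926 CPM. The GFP-miR-34sp mice had 19, 18 and 16 reads (mice 13, 3 and 18), or 1.15, 1.36 and 1.41 CPM, and did not overlap with the controls. In the miR-9 experiment the controls had 1.12 (mouse 16), 1.34 (mouse 8) and 1.49 CPM (mouse 2), and the GFP-miR-9sp mice had 0.896 (mouse 17), 1.28 (mouse 23) and 1.44 CPM (mouse 9), with wide overlap.

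Nwd2 was nearly constant. It lay between 85.2 and 89.0 CPM in the GFP Ctrl mice of the miR-9 experiment, 85.6 and 93.0 in the GFP-miR-9sp mice, 82.3 and 88.6 in the GFP Ctrl mice of the miR-34 experiment, and 81.5 and 88.3 in the GFP-miR-34sp mice. Among the 5 genes only Nwd2 combined many reads with a small spread.

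**Figure D2:**
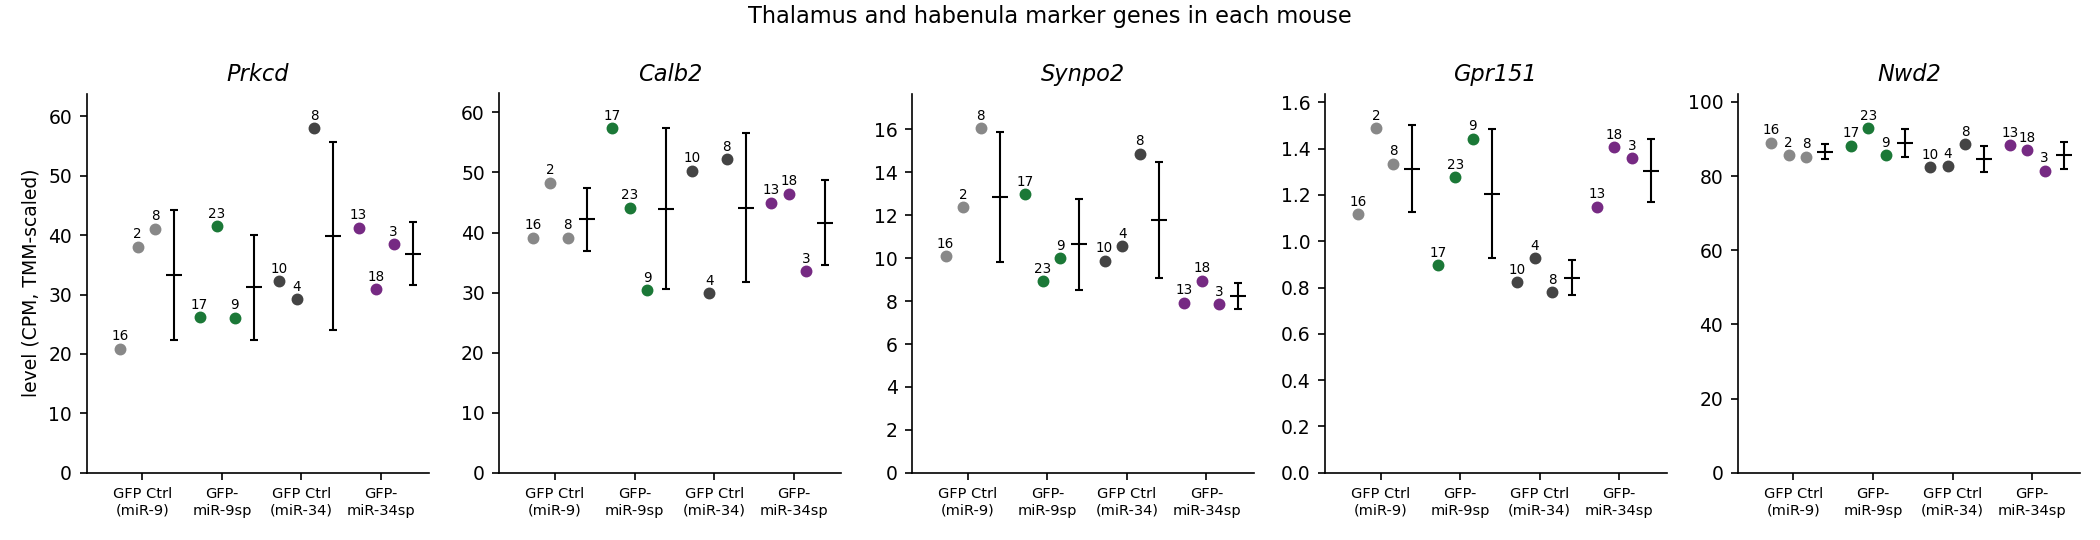
Level (CPM, TMM-scaled) of the 5 members that were measured in every mouse, by group, each axis starting at 0. Points are mice with their number, and bars give the mean and SD of 3 mice. Synpo2 and Gpr151 of the GFP-miR-34sp mice lie below and above all their controls, and Prkcd, Calb2 and Nwd2 overlap in both experiments.

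Whether the sponges altered these genes was tested with the quasi-likelihood test of edgeR over all genes with a mean scaled read count above 10. No member was called at an adjusted p (Benjamini-Hochberg) under 0.05 in either experiment, 0 of 6 in the miR-9 experiment and 0 of 5 in the miR-34 experiment, and DESeq2 also called 0. The background was 0% of 13045 genes and 0.064% of 12492 genes. At an unadjusted p under 0.05 the members counted 0 of 6 and 1 of 5, against 4.73% and 6.43% of all genes. The 2 members of 5 whose groups did not overlap in the miR-34 experiment stand against 11.5% of all genes, and 0 of 6 members against 10.3% in the miR-9 experiment. With 3 mice against 3, an exact permutation test of a single gene cannot go below p = 0.1 (two-sided).

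Synpo2 had the largest negative log2 fold change of the members in both experiments. It was -0.52 (SE 0.16) in the GFP-miR-34sp mice, with an unadjusted p of 0.00721 and an adjusted p of 0.554 by edgeR. Without mouse 8 of the controls it was -0.31 (SE 0.13, unadjusted p = 0.0349, adjusted p = 0.847). In the GFP-miR-9sp mice it was -0.26 (SE 0.18, adjusted p = 0.97) and ranged from -0.42 to -0.07 when a mouse was left out. It was -0.07 without control mouse 8, -0.41 without control mouse 16 (unadjusted p = 0.0386) and -0.42 without sponge mouse 17 (unadjusted p = 0.0456), with an adjusted p of 0.906 or above by edgeR in each. Its mean levels were 11.8 ± 2.71 and 8.24 ± 0.621 CPM (SD, n = 3) in control and GFP-miR-34sp mice. Synpo2 carries no heptamer of either seed in its annotated 3′ UTR.

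Gpr151 had a log2 fold change of 0.61 (SE 0.28) in the GFP-miR-34sp mice, with an unadjusted p of 0.0574 and an adjusted p of 0.785 by edgeR, from 0.843 ± 0.0753 CPM in the controls to 1.3 ± 0.137 CPM (SD, n = 3). It was the only member that met the criterion of the study's methods, which asks for an unadjusted significance and a ratio of means above 1.2 or below its inverse. This criterion was met by 1 of 5 members and 2.0% of all genes in the miR-34 experiment, and by 0 of 6 members and 1.42% in the miR-9 experiment. By DESeq2 the unadjusted p of Gpr151 was 0.229. In the GFP-miR-9sp mice its log2 fold change was -0.12 (SE 0.24).

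The other members had small log2 fold changes relative to their errors. Prkcd changed by -0.09 (SE 0.24) in the miR-9 experiment and by -0.10 (SE 0.21) in the miR-34 experiment, neither past the test, and without mouse 8 of the miR-34 controls the sign turned to 0.27 (SE 0.11, unadjusted p = 0.0323, adjusted p = 0.837). Calb2, with its miR-9 8mer, had 0.06 (SE 0.18) in the GFP-miR-9sp mice and -0.09 (SE 0.18) in the GFP-miR-34sp mice. Nwd2, with a miR-34 heptamer, had 0.02 (SE 0.05) in the GFP-miR-34sp mice and 0.04 (SE 0.04) in the GFP-miR-9sp mice. Rora, with 2 miR-9 heptamers, was tested only in the miR-9 experiment and had 0.31 (SE 0.34) at a mean of 10.7 scaled reads, just above the limit of 10.

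**Figure D3:**
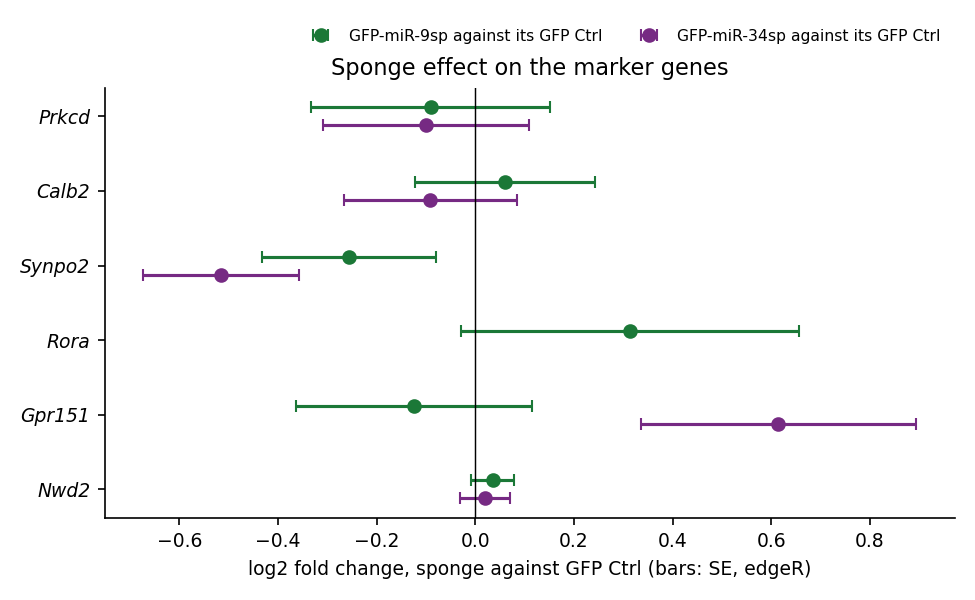
Log2 fold change of sponge against GFP Ctrl mice, with its SE from edgeR, for each member tested in the miR-9 experiment (green) and the miR-34 experiment (purple). The intervals of Prkcd, Calb2 and Nwd2 include 0, Synpo2 lies to the left in both experiments at -0.26 and -0.52, and Gpr151 of the miR-34 experiment lies to the right at 0.61.

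Whether both sponges differed in their effect was examined with an interaction term over the 12 mice. The interaction was called for 0 of 5 members and 0% of 12835 genes by edgeR, with 783 genes at an unadjusted p under 0.05, and DESeq2 called 5 genes, none of them a member. The difference (miR-34 minus miR-9) was 0.74 (SE 0.35, unadjusted p = 0.0653, adjusted p = 0.811) for Gpr151 and -0.26 (SE 0.27) for Synpo2. Between the GFP Ctrl mice of the 2 experiments, 25.2% of 12878 genes and 0 of 5 members were called. With so few members this count is not set apart from the share of all genes. Gpr151 came closest, at -0.65 (SE 0.26, adjusted p = 0.0932) in the miR-34 controls. The experiments differ in depth and in their labels, since the term totRNA stands in the column names of 1 experiment (miR-9) but not of the other, and these differences cannot be told apart from the experiment.

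To see whether the markers of neighbouring tissue varied together, the members were correlated over the mice of each experiment on log2(CPM + 1). All 25 pairs that could be formed, 15 in the miR-9 and 10 in the miR-34 experiment, were tested by an exact permutation test over the pairings of 6 mice. No pair had an adjusted p under 0.05, the smallest being 0.742 for Pearson's r and 0.829 for Spearman's rho. With 6 mice, even a perfect rank order of a single pair could not pass the adjustment over 25 pairs for rho. The absence of a call therefore does not show that the markers varied independently. In the miR-34 experiment the median r of the pairs was 0.33, and r was above 0 for 6 of 10 pairs. The median of the miR-9 experiment was 0.03, with 8 of 15 pairs above 0. All pairs of genes had medians of 0.00 in both experiments, and 3.05% and 3.17% of them had an r above 0.8 in the miR-34 and the miR-9 experiment, against 0 of 10 and 0 of 15 member pairs.

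The thalamus markers Prkcd and Synpo2 had r = 0.52 (rho = -0.03) in the miR-34 experiment and r = 0.29 (rho = 0.03) in the miR-9 experiment, neither past the exact permutation test. Prkcd and Calb2 had r = 0.46 (rho = 0.54) and r = 0.17 (rho = 0.43). Without the 2 mice farthest from the median of Prkcd, r in the miR-34 experiment turned to -0.85 for Prkcd and Synpo2 and to -0.53 for Prkcd and Calb2. The positive values there depended on those mice, and few mice were left for these r. In the miR-9 experiment r became 0.70 and 0.04 by the same omission. With each group centred on its mean instead, r of Prkcd and Synpo2 was 0.74 in the miR-34 and 0.29 in the miR-9 experiment. That of Prkcd and Calb2 was 0.46 and 0.17. Gpr151 and Nwd2, both listed for the habenula, had r = -0.03 and -0.39. Over sponge and control mice together both stayed close to counting error, and the tissue their reads came from was not tested. The positive median of the miR-34 experiment rested on mouse 8 of its controls, without which it was 0.04. With each group centred on its mean, the median was 0.45 in the miR-34 and 0.08 in the miR-9 experiment.

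The other genes of these nuclei, a list of 14 for the thalamus and 11 for the habenula, contained 8 and 7 genes with enough reads. The levels given for them are CPM, which are not divided by length and are not compared between genes. Among the thalamus genes, Amotl1, which encodes a junction protein, had a mean of 60.3 and 56.5 CPM in the miR-9 and the miR-34 experiment, Slc17a6, the vesicular glutamate transporter VGLUT2 of thalamic relay neurons, had 49.9 and 28.1 CPM, and Tnnt1 and Adarb1, each with several entries, had 0 reads. In the habenula list, Lrrc55 had 20.3 and 18.5 CPM and the choline transporter gene Slc5a7 had 1.78 and 1.83 CPM. Tac1 of the same list had 13.1 and 11.6 CPM, and Chrna3 had 1.66 and 1.5 CPM. Between the GFP Ctrl mice of the 2 experiments, edgeR called 1 of 8 thalamus genes (Slc17a6) and 1 of 7 habenula genes (Lrrc55). Both were lower in the miR-34 controls, and 25.2% of all genes were called. DESeq2 called Slc17a6 but not Lrrc55. Few reads were found for Pou4f1, a transcription factor, Chat, the enzyme that makes acetylcholine, and Slc18a3, its vesicular transporter. Each has 1 entry and did not exceed a mean of 0.208 CPM in either experiment.

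Mouse 8 of the controls stood out in both experiments for the thalamus genes. In the miR-34 experiment it was the highest of 6 mice for 3 of 3 thalamus members tested (Prkcd, Calb2, Synpo2) and for 6 of 8 other thalamus genes, while it was the highest for 18.1% of all 12492 genes. In the miR-9 experiment the control mouse 8 was the highest for 1 of 4 thalamus members (Synpo2), with Prkcd at 41.1 CPM just below the 41.5 CPM of mouse 23, and for 6 of 8 other thalamus genes, against 17.1% of all 13045 genes. The median of log2(CPM + 1) over the thalamus genes lay 0.42 above the median mouse in mouse 8 of the miR-34 experiment, and 0.33 above it in mouse 8 of the miR-9 experiment. In the other 10 mice it lay between -0.17 and 0.13. The control mouse 8 was also the highest for 3 of 7 other habenula genes in each experiment, so this was not limited to thalamus genes. Of the habenula members it was the highest for 1 of 2 in the miR-34 and 0 of 2 in the miR-9 experiment. The thalamus list gene Lhx9 went the other way in the miR-34 experiment, with its lowest value, 1.90 CPM, in mouse 8. The control mice numbered 8 were singled out after their values had been seen, and this is a description without a test.

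**Figure D4:**
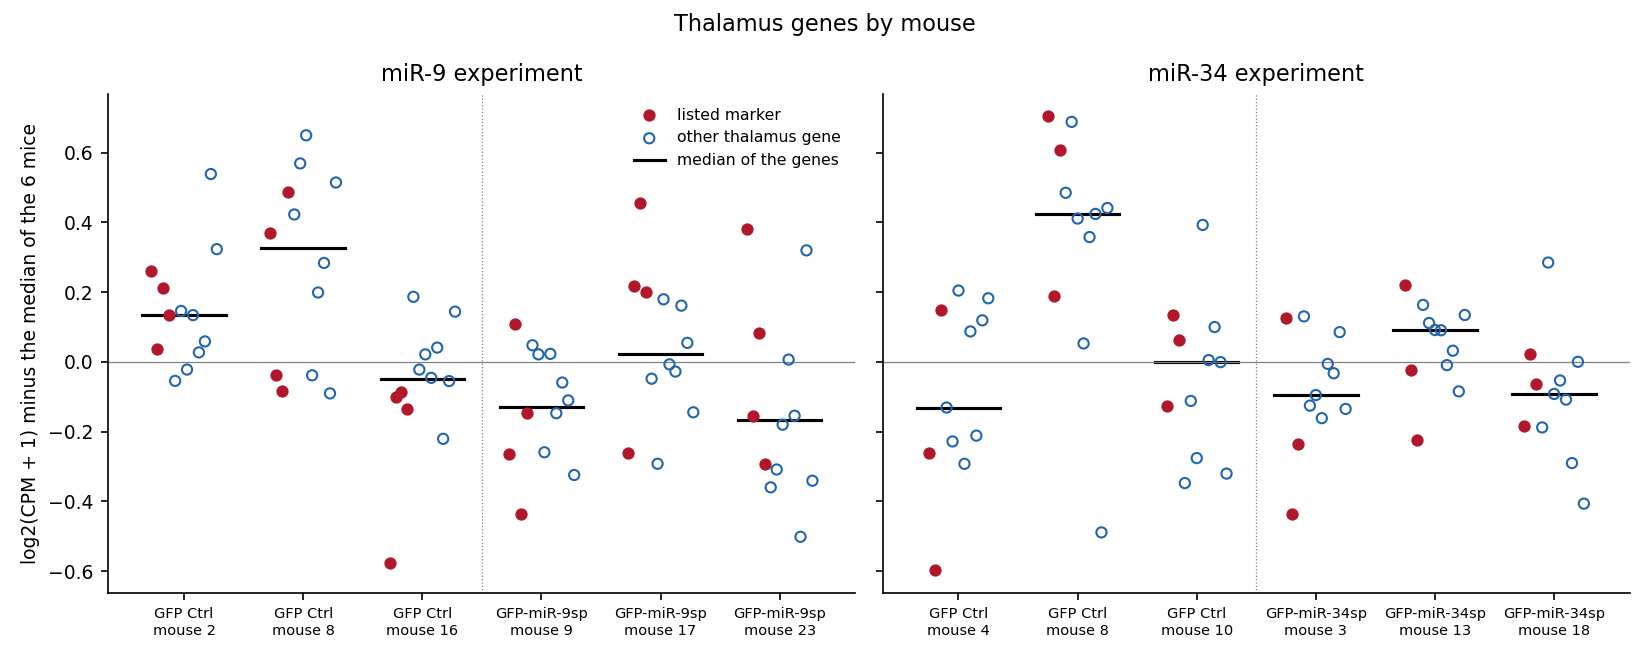
Log2(CPM + 1) of each tested thalamus gene minus the median of the 6 mice of its experiment, for each mouse. Red points are members, open blue points the other thalamus genes, and the black line their median. The medians of the 2 control mice numbered 8 are at 0.33 and 0.42, and those of the other mice are between -0.17 and 0.13.

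The summed level of the other thalamus genes was 164 CPM in mouse 8 and 115 and 122 CPM in mice 10 and 4 of the miR-34 controls, and 111 to 127 CPM in the GFP-miR-34sp mice. For miR-9 it was 196 CPM in mouse 8 and 156 and 158 CPM in mice 2 and 16 of the controls. In the GFP-miR-9sp mice it was 126 to 153 CPM. The groups did not overlap there, at 153 against 156 CPM for the nearest mice, and 10.3% of single genes did not overlap either. Amotl1 and Slc17a6, with means of 60.3 and 49.9 CPM, made up most of the sum in that experiment. Prkcd followed this sum in the miR-34 experiment, with r = 0.92 and rho = 0.83 over 6 mice (exact permutation p = 0.0194 and 0.0583, adjusted over 20 relations 0.222 and 0.514), but r was 0.06 in the miR-9 experiment. Synpo2 followed it with r = 0.74 (rho = 0.14) in the miR-34 and r = 0.88 (rho = 0.77) in the miR-9 experiment (exact permutation p = 0.126 and 0.0222 for r, adjusted 0.506 and 0.222). Without the 2 mice farthest from the median sum, r was 0.65 for Prkcd in the miR-34 experiment and -0.64 and 0.29 for Synpo2. The relation of Synpo2 thus depended on these mice, and few mice were left for these r. The 20 relations were chosen after the levels had been seen, and none passed the adjustment. For rho, a single perfect rank order over 6 mice could not have passed it. The sums of other lists had r of similar or larger size, and the relation is not shown to be particular to thalamus genes. In the miR-34 experiment Prkcd had r = 0.97 with the interneuron sum and Synpo2 r = 0.98 with the striatum sum, and in the miR-9 experiment Synpo2 had r = 0.90 with the mural cell sum, given here as values without a test.

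By edgeR, 0 of the 8 other thalamus genes were called in either experiment. All 8 had a negative log2 fold change in the GFP-miR-9sp mice, with a median of -0.26 against 0.00 over all genes. An unadjusted p under 0.05 was found for 4 of the 8, against 4.73% of all genes. These were Slitrk6 at -0.85 (SE 0.19), Ramp3 at -0.52 (SE 0.20), Slc17a6 at -0.31 (SE 0.12) and Amotl1 at -0.20 (SE 0.06), each with an adjusted p of 0.97, and they are named after their values were seen. Without control mouse 8, the median was -0.17 and Slitrk6 and Amotl1 remained of the 4. In the GFP-miR-34sp mice 6 of 8 were negative, the median was -0.18, and it was -0.04 without control mouse 8. There 1 of 8 (Amotl1) had an unadjusted p under 0.05 with all mice, against 6.43% of all genes. Of the 7 other habenula genes 0 were called, with medians of -0.10 and -0.11, and their summed level was 36.2 to 40.2 CPM in GFP-miR-9sp against 42.5 to 46.4 CPM in control mice, and 34.1 to 37.4 against 37.5 to 42.2 CPM in the miR-34 experiment. In bulk tissue, fewer cells of a type and less RNA per cell cannot be told apart.

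Markers of other tissues and cell types moved with some of the same mice or groups, and their part in the values of the members was not tested. The 9 choroid plexus genes summed to 666 to 2435 CPM in the GFP Ctrl mice and 77.0 to 160 CPM in the GFP-miR-34sp mice, with mouse 8 the highest, and 7 of 7 tested were lower, 3 of them at an adjusted p under 0.05. For miR-9 this sum was 125 to 731 CPM in control and 56.2 to 872 CPM in sponge mice, and mouse 8 was the lowest of the controls. The 8 striatum genes summed to 191 CPM in mouse 8 and to 109 to 130 CPM in the other 5 mice of the miR-34 experiment. For miR-9 the striatum sum was 155 to 167 CPM in control and 131 to 163 CPM in sponge mice, and mouse 8 did not stand out. The 5 mural cell genes, listed because smooth muscle also makes Synpo2, summed to 45.5 to 59.6 CPM in control and 41.2 to 50.5 CPM in GFP-miR-34sp mice, and to 26.7 to 39.6 CPM in control and 26.2 to 29.6 CPM in GFP-miR-9sp mice. In both experiments mouse 8 had the highest mural sum. The hippocampal genes summed to 727 to 914 CPM in the miR-9 experiment and 761 to 839 CPM in the miR-34 experiment, and the 6 interneuron genes to 1186 to 1314 CPM over all mice. Sums of upper layer cortex genes (86.2 to 144 CPM), endothelium (229 to 276 CPM) and the oligodendrocyte lineage (225 to 276 CPM) overlapped between sponge and control in both experiments. Mouse 8 of the miR-34 controls was also the highest of its 6 mice for upper layer cortex (102 CPM), endothelium (276 CPM) and interneurons (1312 CPM).

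Outside these lists, the genes whose pattern over mice was most like the mean of the tested members were ranked by the smaller of their r in the 2 experiments, among 9889 genes. The 10 most similar were Zfp759 (0.86), Bcdin3d (0.82), Tmem18 (0.81), B4galt5 (0.80), Cxcl12 (0.79), Mtrf1 (0.79), Ghdc (0.78), Cdc16 (0.77), Mpi (0.77) and Sec63 (0.74). None of them was on the thalamus or habenula lists. By the same measure, which includes the gene itself, Prkcd would rank 9 and Calb2 27, whereas Synpo2 would rank 136 and Nwd2 3276. An r above 0.8 in both experiments was found for 4 genes, or 0.0404% of those ranked. The ranking is a description without a test.

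Tcf7l2 and Lef1 act on the Wnt pathway, of which a list of 19 other genes was examined, 16 of them with enough reads. By edgeR, 0 were called in either experiment, and the median log2 fold change was -0.01 in the miR-9 and 0.00 in the miR-34 experiment. An unadjusted p under 0.05 was found for 1 of the 16 in the GFP-miR-9sp mice, against 4.73% of all genes. This was Lgr6, a receptor of R-spondins, at 0.44 (SE 0.13, adjusted p = 0.97 by edgeR). In the GFP-miR-34sp mice 1 of the 16 was higher and 2 were lower at this limit, against 6.43% of all genes. These were the Wnt inhibitors Apcdd1, at 0.16 (SE 0.06), and Sfrp1, at -0.39 (SE 0.15), and the beta-catenin cofactor Pygo1, at -0.19 (SE 0.07). Their adjusted p by edgeR was 0.70 to 0.71. These 4 genes are named after their values were seen. Axin2, a direct target of the pathway, had 41.7 and 43.2 CPM in the miR-9 and the miR-34 experiment and log2 fold changes of 0.03 and -0.02.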

How the data were processed

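Per the labels and the study's methods, poly-A RNA of dissected hippocampi from 12 mice was sequenced as single reads. The authors deposited raw counts per RefSeq transcript entry beside the length of each entry. The submitters' processing notes name STAR and mm10, whereas the methods name mm9. The counting tool and the rule for reads shared between entries are not given in the sources used here. Here 32850 entries, 98.7% joined to a symbol, were summed into 24209 features. Sponge and GFP Ctrl mice of each experiment were compared by edgeR 4.0.16 (quasi-likelihood, TMM, R 4.3.3) with DESeq2 1.42.0 as the alternative, on genes with a mean scaled count above 10, with Benjamini-Hochberg adjustment over all genes. The tests were tried on simulated counts, with larger fold changes than those of the members and in genes with more reads than Gpr151 and Rora. The simulated spread was that typical of the read number, so the power for the members was not tested. CPM and RPKM are descriptions, and a log2 value of a correlation uses a pseudocount of 1 CPM. The labels name the experiment of only 1 set of GFP Ctrl mice, and the remaining set was taken as that of miR-9. The mice are separate animals, and chi-square values per gene between replicates were 2.72 to 14.8, so no pair agreed within sampling noise. Named genes are the 9 members, the 10 genes most like them, and list genes. Members and lists were chosen with earlier results of these data known. Alternatives were other tools, size factors, filters, a single entry per gene, 1 model of all mice, the study's criterion and leaving out each mouse. For the correlations they included centring each group on its mean. The limit of detection was taken as 3 reads, which covers counting error only.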

Additional observations from a re-analysis of the deposited data

How the results depend on the processing

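No paired analysis was possible because the sponge and GFP Ctrl mice compared share fewer than 2 numbers in the labels. Under every alternative run, edgeR or DESeq2 called 0 members in either experiment, in the difference between them and between the controls. The exception is the study's criterion, by which 1 member (Gpr151) was called in the miR-34 experiment, at a log2 ratio of 0.63.

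Over all genes, the miR-9 count of 0 became 2 with DESeq2, 2 with all genes of at least 1 read, 185 by the study's criterion and 0 to 1 when a mouse was left out. The miR-34 count of 8 became 36 with DESeq2, 4 with median of ratios factors, 4 with total counts only, 4 with a single entry per gene, 81 with all genes of at least 1 read, 250 by the study's criterion, 0 in 1 model of all 12 mice and 0 to 57 when a mouse was left out. The difference between the sponge effects gave 5 genes with DESeq2 and 4 with all genes of at least 1 read. For the controls, the count was 2266 to 2913 when a mouse was left out.

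Of 105 log2 values of members under alternatives that kept all mice or left out both control mice numbered 8, 101 kept their sign. The 4 others concern the difference between the effects. Prkcd became 0.0049 (from -0.01) with all genes of at least 1 read. Without both mice numbered 8, an alternative chosen after the values were seen, Prkcd became 0.18, Calb2 0.0258 and Nwd2 0.0291.

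Leaving out 1 mouse moved the log2 fold changes of the miR-9 experiment over -0.18 to 0.27 for Calb2, -0.28 to 0.0616 for Gpr151, and -0.35 to 0.0822 for Prkcd. In the miR-34 experiment the ranges were -0.30 to 0.0413 for Calb2, -0.0046 to 0.0557 for Nwd2 and -0.27 to 0.27 for Prkcd. Between the controls they were -0.0708 to 0.27 for Calb2, -0.12 to 0.43 for Prkcd and -0.33 to 0.0476 for Synpo2. The median r of the member pairs ranged over -0.10 to 0.14 in the miR-9 and 0.0442 to 0.45 in the miR-34 experiment. In each set the cause was not tested.

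The depth limits Gpr151 and Rora, which had 2 to 33 reads per mouse.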
